A study of Mus musculus with 45 samples.

Results

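Collagen chain genes encode the alpha chains of the collagens, the main proteins of the extracellular matrix. They were chosen by name alone, as the genes whose symbol on the array platform is Col, a number, a and another number with nothing after. The rule found 42 genes among the 18193 genes measured, and no expression value entered it. They had 82 probe sets between them, with more than 1 probe set for 27 of the genes. Each gene was read from the probe set that was brightest on average across the 45 arrays. By type, 8 of the 42 were fibrillar chains, 8 were basement membrane chains, 7 were chains typical of cartilage and 19 were others. Col2a1, Col11a1 and Col11a2 also encode fibrillar collagens but were counted with cartilage, so fibrillar here means the fibrillar chains outside that list.

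Collagen chains are wound around each other in the endoplasmic reticulum, after enzymes have hydroxylated their prolines and lysines, and are trimmed and crosslinked once outside the cell. Fibrillar collagens give tissue its tensile strength, while type IV collagen is the mesh to which laminin and nidogen bind in basement membranes. In the heart the fibrillar collagens are made mainly by fibroblasts, which arise largely from the epicardium, and the cushions that become valves and septa share several matrix genes with cartilage.

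The study asked how gene expression differed over time, and between the ventricles, as the mouse heart formed. There were 15 groups of 3 arrays. The earliest were cultures of R1 embryonic stem cells (ESC), followed by entire E7.5 embryos (E for embryonic day) and by heart tubes cut out at E8.5. Both ventricles were then sampled separately at 6 ages. These were E9.5, E12.5, the 2 fetal ages E14.5 and E18.5, and, postnatally, day 3 (counted from birth) and adulthood, with the adult age not given. All animals were wild type CD1 mice without treatment. Embryonic samples were pools of embryos or hearts, each day 3 or adult sample came from a single heart, and the ESC are cultures of 1 line.

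Values are log2 intensities made with RMA (robust multi-array average), so a difference of 1 is a 2-fold difference, and probe sets of different genes were not compared in level. The median over all genes and arrays was 6.80. A gene is called different where limma's moderated test, with p-values adjusted over all 18193 genes by the Benjamini-Hochberg method, gave an adjusted p under 0.05. For steps between stages, same-numbered left and right ventricles were averaged, which leaves 3 values per stage. The number of arrays limits the precision, and the p-values measure only the spread between these samples. In tissue, fewer cells of a type and less RNA per cell cannot be told apart.

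A list of 10 cardiomyocyte genes averaged 12.9 to 13.7 in heart tubes and ventricles, against 5.84 to 6.19 in E7.5 embryos and 5.88 to 5.96 in ESC. Of the arrays, 4 stood apart from their own group on a list of genes of another tissue. Replicate 2 of the E7.5 embryos lay 1.79 above the other replicates on decidua and trophoblast genes. Yolk sac endoderm genes stood 2.53 above in heart tube 2 and 1.66 above in E18.5 left ventricle 2. Skin genes stood 2.66 above in E14.5 left ventricle 2, and skeletal muscle genes 1.75 above. Without these 4 arrays, the counts of collagen genes called per stage step were 16, 22, 9, 28, 13, 23, 16 and 26, in time order. In addition, adult right ventricle 2 averaged 10.5 on 12 fibroblast genes, against 9.09 and 9.29 in the other adult right ventricles.

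Over the 9 stages, collagen genes had wide ranges. The difference between the highest and the lowest stage mean had a median of 3.00 over the 42 genes, against 1.17 over all genes. It reached 8.44 for Col3a1, was at least 2 in 26 genes and was under 1 in 12. The stage with the highest mean was day 3 in 12 genes, the adult in 10, E12.5 in 9, E8.5 and E14.5 in 4 each, ESC in 2 and E7.5 in 1. The lowest mean fell in ESC in 13 genes and at E7.5 in 8. In 10 genes the mean was under 6.80 in every group, a state shared by 6931 of all 18193 genes: Col4a3, Col6a4, Col6a5, Col9a2, Col10a1, Col11a2, Col17a1, Col19a1, Col22a1 and Col24a1.

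**Figure D1:**
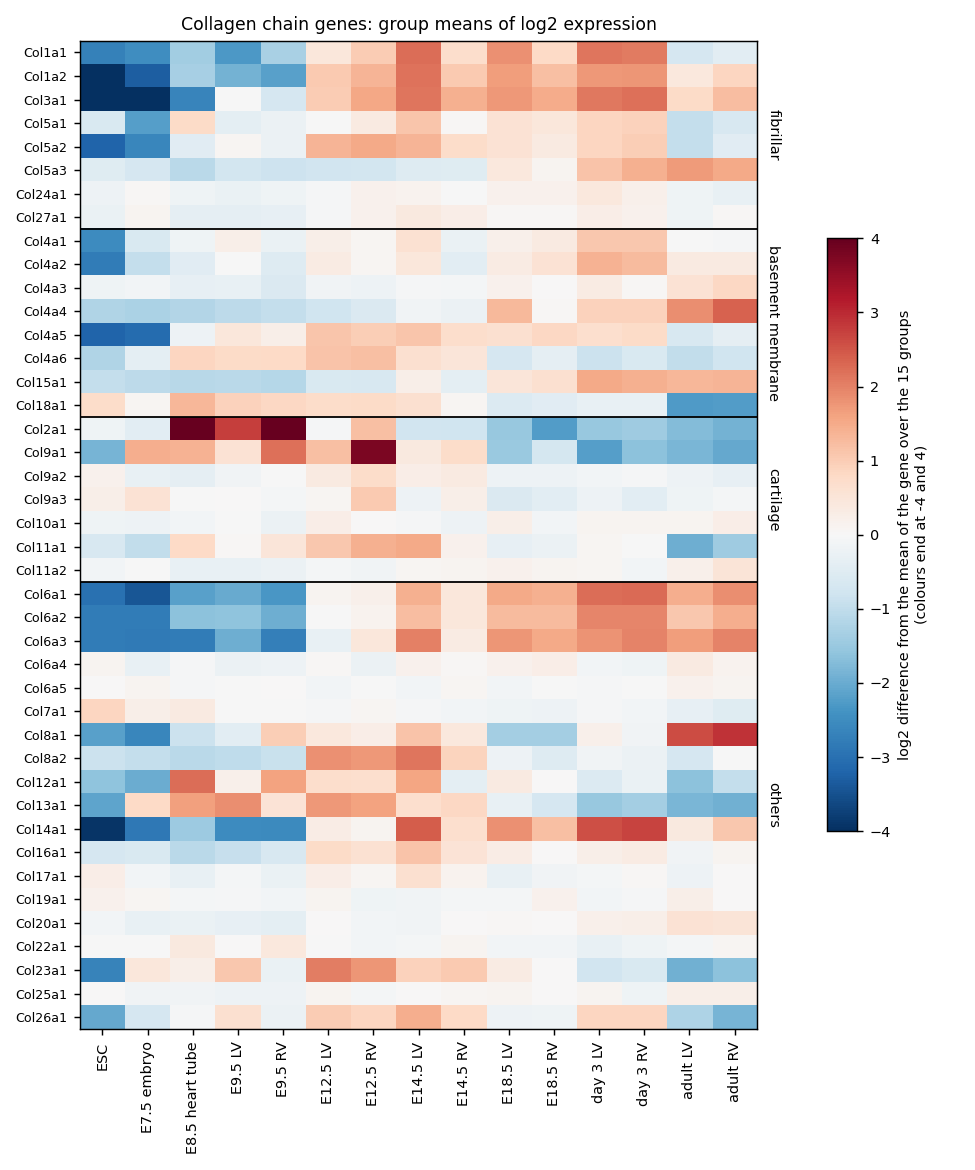
Difference of each group's mean from the gene's own mean over the 15 groups (colour, log2, limited to -4 and 4), for the 42 collagen chain genes (rows, by type) in the 15 groups (columns, in time order, left ventricle before right). Between E9.5 and E12.5, Col1a1 and Col1a2 turn from below to above their own means, and Col6a1, Col6a2 and Col6a3 from well below to near theirs. Col2a1 is high at E8.5 and E9.5, and Col4a4 and Col8a1 are highest in the adult.

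The first step, from ESC to the E7.5 embryo, called 18 collagen genes (13 higher and 5 lower at E7.5), or 42.9% of them, against 49.4% of all genes (24.3% higher, 25.2% lower). At E8.5 against E7.5 it was 23 genes (20 higher, 3 lower), against 48.6% of all genes (20.4% higher, 28.1% lower). Cell type markers moved in this step from entire embryo to heart tube: 12 of 12 endothelial and endocardial markers were higher (list means of 8.45 to 8.66 in heart tubes, against 5.92 to 6.67 in E7.5 embryos), as were 7 of 10 smooth muscle and pericyte markers (8.84 to 9.10 in heart tubes, against 6.52 to 6.58 in E7.5 embryos). Yolk sac endoderm markers were lower in 10 of 10 (6.94 to 9.75 in heart tubes, against 11.31 to 12.15 in E7.5 embryos). The part of these lists in the collagen counts was not tested. At E9.5 against E8.5, 12 genes were called (3 higher, 9 lower), against 26.9% of all genes (12.8% higher, 14.1% lower). With any 1 replicate of either stage left out, 7 to 9 genes were called. The 7 came without replicate 1 of E9.5, where Col4a5, Col7a1, Col11a1, Col13a1 and Col14a1 were no longer among them.

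The widest shift towards higher values came at E12.5 against E9.5, with 27 genes called, 25 of them higher and 2 lower. Those 27 are 64.3% of the collagen genes, against 38.1% of all genes, where 20.1% were higher and 18% lower. The median difference was 0.43 over the 42 genes, 0.99 over the 8 fibrillar genes and 0.04 over all genes. Markers of fibroblasts moved in the same step: 9 of 12 were higher and 1 lower, and the list averaged 8.35 to 9.24 per array at E12.5, against 6.65 to 7.45 at E9.5. Their part in the collagen values was not tested.

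The following steps were smaller until the adult. At E14.5 against E12.5, 13 genes were called (6 higher, 7 lower), against 13.3% of all genes (7.18% higher, 6.09% lower). Fitted on those groups alone, the same step called 21 genes (12 higher, 9 lower). At E18.5 against E14.5, 21 were called (5 higher, 16 lower), against 30.6% of all genes (11.8% higher, 18.7% lower), and 5 of the 7 cartilage genes were among the lower ones. At day 3 against E18.5, 14 were called (10 higher, 4 lower), against 20.2% of all genes (9.94% higher, 10.3% lower). Handling changed at this step too: E18.5 samples were pools, while day 3 samples were single hearts that had been frozen and ground. Age and handling cannot be told apart in it. In the adult against day 3, 26 were called (7 higher, 19 lower), against 48.8% of all genes (22.3% higher, 26.4% lower). Of the 8 fibrillar genes 7 were lower in the adult, with a median difference of -1.13. With the arrays scaled to housekeeping genes, the split over the 42 genes became 13 higher and 15 lower. That of the fibrillar genes became 1 higher, Col5a3 (0.56, adjusted p = 0.00377), and 5 lower, as the calls of Col3a1 and of Col27a1 (-0.05, adjusted p = 0.547) were lost.

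**Figure D2:**
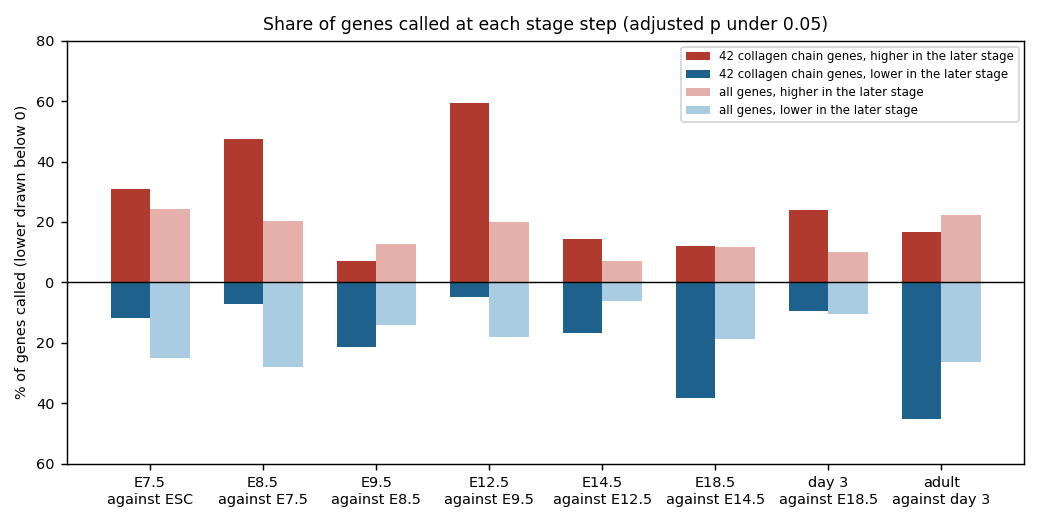
Percentage of the 42 collagen genes and of all 18193 genes called higher (above 0) or lower (below 0) at the later of 2 neighbouring stages (adjusted p under 0.05), for the 8 steps in time order. The collagen bar stands furthest above that of all genes for higher calls at E12.5 against E9.5, with 25 of 42 genes against 20.1% of all genes.

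Type I collagen, the main fibre of the heart's matrix, is built from the chains of Col1a1 and Col1a2. Col1a1 averaged 6.63 ± 0.14 in ESC, 6.85 ± 0.42 at E7.5, 7.96 ± 0.18 at E8.5, 7.53 ± 0.20 at E9.5, 10.08 ± 0.16 at E12.5, 10.80 ± 0.17 at E14.5, 10.65 ± 0.08 at E18.5, 11.45 ± 0.12 at day 3 and 8.79 ± 0.45 in the adult (SD, n = 3 at each stage). At E12.5 its values were 9.59, 10.11 and 9.69 in left and 10.43, 10.42 and 10.25 in right ventricles, against 6.85, 7.29 and 6.98 in left and 7.86, 8.21 and 8.01 in right ventricles at E9.5. Every E12.5 array lay above every E9.5 array. The difference was 2.55 ± 0.19 (SE, adjusted p = 2.42e-10). After birth the direction turned: adult hearts stood at 8.70, 8.65 and 8.68 on the left and 8.57, 9.95 and 8.2 on the right, against 11.42, 11.50 and 11.51 on the left and 11.20, 11.52 and 11.57 on the right at day 3. The adult and day 3 arrays did not overlap, and Col1a1 was lower in the adult by 2.66 (difference -2.66 ± 0.19, adjusted p = 2.36e-11). Adult right ventricle 2, the array with the highest fibroblast genes, was also the highest adult array for Col1a1, and without it the difference was -2.88. The smaller step at E14.5 against E12.5 (0.72 ± 0.19, adjusted p = 0.011) was not called without the 4 arrays that stood apart (0.48, adjusted p = 0.101). The ventricles parted in this step: left ventricles averaged 11.57 ± 0.19 at E14.5 against 9.80 ± 0.28 at E12.5, and right ventricles 10.03 ± 0.16 at E14.5 against 10.36 ± 0.10 at E12.5 (SD, n = 3).

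Col1a2 followed the same order of stages, with day 3 highest and ESC lowest. It was already higher at E7.5 than in ESC, with 8.08, 8.68 and 7.94 at E7.5 against 7.01, 6.80 and 6.89 in ESC (difference 1.33 ± 0.18, adjusted p = 1.52e-06). The Col1a1 difference in that step was 0.21 (adjusted p = 0.362), and a test between the genes was not made. At E12.5 against E9.5, Col1a2 rose by 3.22 ± 0.18 (adjusted p = 3.81e-12), with a mean of 12.58 ± 0.11 (SD, n = 3) in left and values of 12.99, 12.86 and 12.77 in right ventricles at E12.5, against 9.49, 9.96 and 9.48 in left and 9.27, 9.69 and 9.15 in right ventricles at E9.5. No E12.5 array fell within the E9.5 range. The Col1a2 mean was 13.14 ± 0.04 at E14.5 and 12.97 ± 0.05 at E18.5. The adult mean was 12.18 ± 0.47, against 13.28 ± 0.05 at day 3 (difference -1.1 ± 0.18, adjusted p = 2.03e-05). Over the 9 stage means the 2 chains had a correlation of 0.95, a description of means from shared arrays.

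Col3a1, the chain of type III collagen that forms fibres together with type I, had the widest range of the 42 genes. Its means were 5.63 ± 0.20 in ESC, 5.87 ± 1.58 at E7.5, 9.27 ± 0.13 at E8.5, 11.56 ± 0.25 at E9.5, 13.19 ± 0.05 at E12.5, 13.69 ± 0.02 at E14.5, 13.53 ± 0.04 at E18.5, 14.07 ± 0.05 at day 3 and 12.91 ± 0.52 in the adult (SD, n = 3). It was higher at E8.5 than at E7.5 by 3.4 ± 0.42 (adjusted p = 3.27e-07), with 9.40, 9.14 and 9.26 in heart tubes against 5.32, 7.65 and 4.65 in E7.5 embryos. The 3 heart tubes lay above all E7.5 embryos, of which the second, the array with high decidua and trophoblast genes, was far above the others. Without the 4 arrays that stood apart, Col3a1 was lower at E7.5 than in ESC by 0.64 (difference -0.64, adjusted p = 0.017), where all arrays gave 0.25 ± 0.42 (adjusted p = 0.657).

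Col3a1 rose at E9.5, a step at which Col1a2 fell. At E9.5 it averaged 11.89 ± 0.17 (SD, n = 3) in left ventricles and stood at 10.70, 11.65 and 11.32 in right ventricles, against 9.40, 9.14 and 9.26 in E8.5 heart tubes (difference 2.29 ± 0.42, adjusted p = 2.04e-04). All E9.5 arrays exceeded the heart tubes. The fall of Col1a2 was 0.70 (difference -0.70, adjusted p = 0.005) and the Col1a1 difference was -0.43 (adjusted p = 0.098). At E12.5 against E9.5 the Col3a1 difference was 1.63 ± 0.42 (adjusted p = 0.003). In the adult against day 3 it was -1.16 ± 0.42 (adjusted p = 0.025), and the call was lost when arrays were scaled to housekeeping genes (-0.92, adjusted p = 0.051).

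**Figure D3:**
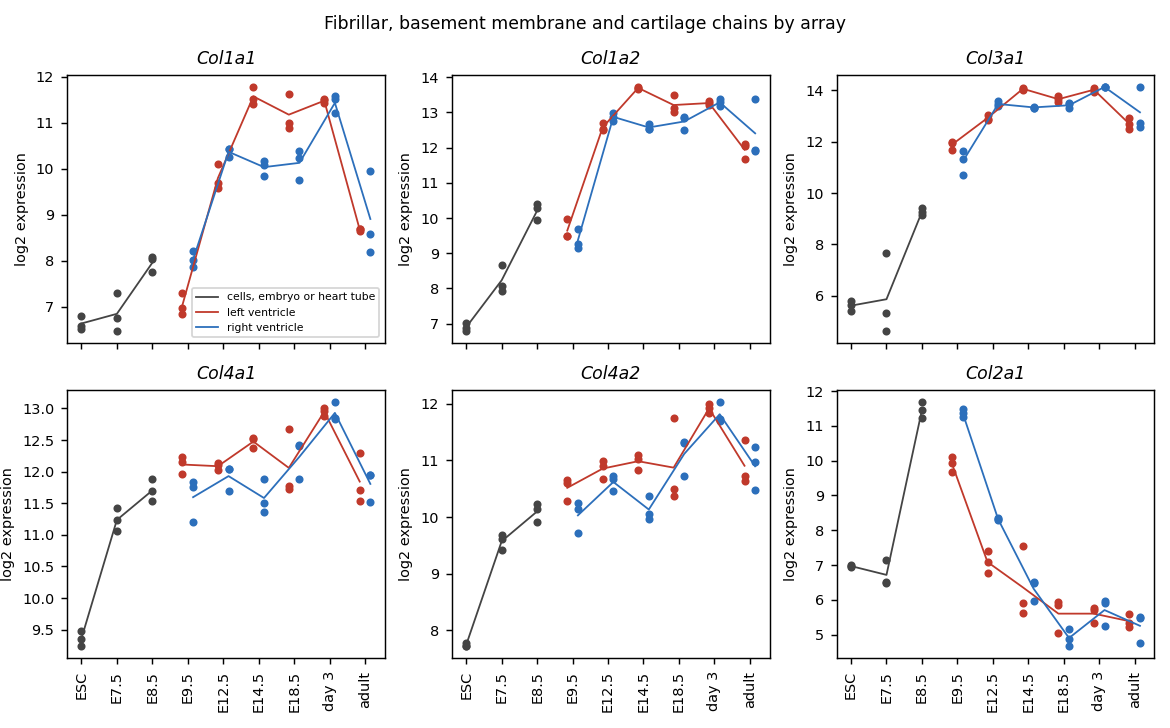
Log2 RMA values of Col1a1, Col1a2, Col3a1, Col4a1, Col4a2 and Col2a1 on every array (points), by stage, with left ventricles in red to the left of right ventricles in blue and lines joining the means. The type I and III genes climb to day 3 and are lower in the adult (Col1a1 11.45 at day 3 and 8.79 in the adult), the type IV genes climb early, and Col2a1 peaks at E8.5 at 11.45.

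Type V collagen, which starts and sizes the fibrils of type I, is made of Col5a1 and Col5a2, with Col5a3 in some tissues. Col5a1 fell and then rose over the first steps. It was 7.69, 7.31 and 7.41 at E7.5 against 9.02, 8.96 and 9.17 in ESC (difference -1.58 ± 0.15, adjusted p = 3.36e-09). It was 10.54, 10.12 and 10.64 in E8.5 heart tubes, above all E7.5 embryos (difference 2.96 ± 0.15, adjusted p = 4.67e-14). At E9.5 it was lower again, at 9.26, 9.38 and 9.21 in left and 9.22, 9.60 and 9.40 in right ventricles, under every heart tube (difference -1.09 ± 0.15, adjusted p = 5.53e-06). Col5a2 rose at E8.5 too, with 10.08, 9.76 and 10.15 against 7.77, 8.32 and 7.38 at E7.5 (difference 2.17 ± 0.20, adjusted p = 2.41e-09). Its highest mean was at E12.5, 11.87 ± 0.18, against 10.36 ± 0.27 at E9.5 (SD, n = 3). Both chains fell in the adult against day 3, with -1.68 ± 0.15 for Col5a1 (adjusted p = 1.13e-09) and -1.61 ± 0.20 for Col5a2 (adjusted p = 2.47e-07). Adult right ventricle 2 was again the highest adult array for both, at 9.91 for Col5a1 and 10.99 for Col5a2.

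The minor type V chain Col5a3 had another course. It stayed between 4.31 and 4.90 in stage mean up to E14.5, then was 5.64 ± 0.15 at E18.5, 6.66 ± 0.20 at day 3 and 6.98 ± 0.24 in the adult (SD, n = 3). At day 3 its arrays read 6.52, 6.44 and 6.59 on the left and 7.25, 6.59 and 6.56 on the right, against 5.54, 5.77 and 6.08 on the left and 5.41, 5.53 and 5.49 on the right at E18.5 (difference 1.02 ± 0.16, adjusted p = 9.23e-05). Every day 3 array lay above every E18.5 array. The remaining fibrillar chains moved little: Col27a1, known from growing cartilage, had stage means from 7.32 to 8.03, and Col24a1, known from developing bone, from 2.66 to 3.20, under the median of all values in every group. Col24a1 was lower in the adult than at day 3 (difference -0.54 ± 0.11, adjusted p = 2.36e-04).

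Type IV collagen exists as 3 kinds of network: that of Col4a1 and Col4a2, found in most basement membranes, that of Col4a3, Col4a4 and Col4a5, best known from the kidney glomerulus, and that of Col4a5 and Col4a6, found under some epithelia and smooth muscle. The genes lie head to head in pairs, Col4a1 with Col4a2, Col4a3 with Col4a4, and Col4a5 with Col4a6. The RefSeq promoter windows (GRCm38.p6, 250 bases before to 50 after the start, in the gene's own direction) of 2 pairs are shown because Col4a1 and Col4a2 moved closely together, and Col4a5 and Col4a6 less so. Capitals mark matches, on either strand, to CCAAT, the CCAAT box, and GGGCGG, a GC box. The TATA box motif TATAAA was searched the same way, and no matches overlapped within a window.
The Col4a1 window lies on the minus strand at chr8:11312777-11313076.
Col4a1: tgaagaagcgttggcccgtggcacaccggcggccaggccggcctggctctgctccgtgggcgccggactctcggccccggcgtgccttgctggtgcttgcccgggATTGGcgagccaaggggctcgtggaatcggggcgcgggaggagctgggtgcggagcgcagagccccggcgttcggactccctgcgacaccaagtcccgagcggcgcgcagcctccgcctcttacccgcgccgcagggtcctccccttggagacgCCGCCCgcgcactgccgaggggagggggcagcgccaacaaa
The Col4a2 window lies on the plus strand at chr8:11312555-11312854.
Col4a2: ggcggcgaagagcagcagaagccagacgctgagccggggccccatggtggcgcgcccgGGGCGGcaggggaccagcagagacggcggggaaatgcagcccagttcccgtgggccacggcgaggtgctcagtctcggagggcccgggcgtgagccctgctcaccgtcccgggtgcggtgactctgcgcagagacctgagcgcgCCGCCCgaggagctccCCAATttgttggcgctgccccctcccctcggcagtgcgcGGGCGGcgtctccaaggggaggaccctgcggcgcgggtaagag
The Col4a5 window lies on the plus strand at chrX:141475169-141475468.
Col4a5: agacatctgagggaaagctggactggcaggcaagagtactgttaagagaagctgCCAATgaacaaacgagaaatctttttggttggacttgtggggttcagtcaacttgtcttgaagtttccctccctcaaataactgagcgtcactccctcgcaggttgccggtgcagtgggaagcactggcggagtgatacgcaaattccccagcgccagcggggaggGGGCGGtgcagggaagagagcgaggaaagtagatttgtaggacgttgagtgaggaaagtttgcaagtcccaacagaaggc
The Col4a6 window lies on the minus strand at chrX:141474027-141474326.
Col4a6: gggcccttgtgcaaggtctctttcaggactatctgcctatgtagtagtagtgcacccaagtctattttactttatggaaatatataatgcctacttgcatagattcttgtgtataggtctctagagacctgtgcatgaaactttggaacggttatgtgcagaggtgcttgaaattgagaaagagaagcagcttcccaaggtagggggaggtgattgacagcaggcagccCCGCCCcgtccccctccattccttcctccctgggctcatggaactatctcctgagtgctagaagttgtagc
The starts of Col4a1 and Col4a2 are 21 bases apart, and their windows share 78 bases. The GGGCGG match at bases 260 to 265 of the Col4a1 window is the same site as that at bases 258 to 263 of the Col4a2 window. It is counted in both. Those of Col4a5 and Col4a6 are 1343 bases apart. CCAAT matched 1 time each in the Col4a1, Col4a2 and Col4a5 windows and 0 times in that of Col4a6, and GGGCGG matched 1 time in each but that of Col4a2, with 3. TATAAA matched in none of the 4. Of all 32851 promoters of this length in the table, 37.4% held CCAAT, 35.7% GGGCGG and 13.6% TATAAA. Of the 36 windows listed for 33 of the collagen genes, 13 held CCAAT, 22 GGGCGG and 5 TATAAA. A match is a run of letters, not a bound site.

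The largest rises of Col4a1 and Col4a2 were at the first step and after birth. Col4a1 was 11.42, 11.23 and 11.06 at E7.5 against 9.48, 9.24 and 9.36 in ESC (difference 1.88 ± 0.13, adjusted p = 1.45e-11). Col4a2 was 9.62, 9.68 and 9.42 at E7.5 against 7.78, 7.72 and 7.73 in ESC (difference 1.83 ± 0.14, adjusted p = 1.13e-10). For both genes all E7.5 embryos exceeded all ESC cultures. The E7.5 samples also held markers of parietal endoderm, a layer that makes much basement membrane: 5 of 8 were higher and 2 lower, and the list averaged 7.58 to 8.41 at E7.5, against 6.57 to 6.66 in ESC. This list does not mark that layer alone, as it averaged 8.71 to 8.77 in left and 8.76 to 8.84 in right ventricles at day 3. Yolk sac endoderm markers were higher in 10 of 10 (11.31 to 12.15 at E7.5, against 5.92 to 6.03 in ESC), and decidua and trophoblast markers in 5 of 7 (4.06 to 5.95 at E7.5, against 3.28 to 3.45 in ESC). Of all genes, 24.3% were called higher and 25.2% lower in this step. The part of these lists in the type IV values was not tested.

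Smaller rises lay between these steps. The Col4a1 mean was 11.24 at E7.5, 11.70 at E8.5, 11.86 at E9.5, 12.01 at E12.5, 12.03 at E14.5 and 12.15 at E18.5. The Col4a2 mean was 9.58 at E7.5, 10.10 at E8.5, 10.28 at E9.5, 10.74 at E12.5, 10.56 at E14.5 and 10.99 at E18.5. At day 3, Col4a1 reached 12.88, 13.01 and 12.96 on the left and 12.84, 12.85 and 13.10 on the right, against 11.73, 11.78 and 12.67 on the left and 12.40, 12.42 and 11.89 on the right at E18.5 (difference 0.80 ± 0.13, adjusted p = 9.02e-05). All day 3 arrays lay above all E18.5 arrays, although E18.5 left ventricle 3 came near. The Col4a2 difference was 0.87 ± 0.14 (adjusted p = 8.96e-05). In the adult against day 3, Col4a1 fell by 1.12 (difference -1.12 ± 0.13, adjusted p = 9.65e-08) and Col4a2 by 0.96 (difference -0.96 ± 0.14, adjusted p = 3.37e-06). The stage means of the 2 genes had a correlation of 0.98 over 9 stages.

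Col4a5 and Col4a6 shared the early rise and parted later. Col4a5 was 9.88, 9.62 and 9.57 in E8.5 heart tubes against 7.38, 6.55 and 6.51 in E7.5 embryos (difference 2.88 ± 0.19, adjusted p = 6.85e-12), and the groups were well apart. Col4a6 was higher in the heart tubes by 1.26 ± 0.13 (adjusted p = 1.49e-08). Both peaked at E12.5, Col4a5 at 10.92 ± 0.14 and Col4a6 at 7.64 ± 0.07 (SD, n = 3). Col4a6 was then lower at E18.5, with 6.11, 5.25 and 5.99 on the left and 6.12, 6.23 and 6.02 on the right, against 6.91, 7.31 and 7.06 on the left and 6.73, 6.95 and 7.17 on the right at E14.5 (difference -1.07 ± 0.13, adjusted p = 8.28e-07). No E18.5 array reached the E14.5 range, and Col4a5 was 10.61 ± 0.09 at E18.5 against 10.78 ± 0.16 at E14.5, a difference that was not called. Col4a5 fell in the adult, to 9.39 ± 0.42, against 10.59 ± 0.08 at day 3 (difference -1.21 ± 0.19, adjusted p = 8.03e-06). The correlation of the stage means was 0.54 for this pair.

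The chains best known from the kidney went the other way in the adult heart. Col4a4 climbed from E12.5 on, with stage means of 4.33 ± 0.19 at E12.5, 4.82 ± 0.18 at E14.5, 5.68 ± 0.32 at E18.5, 5.94 ± 0.12 at day 3 and 7.12 ± 0.52 in the adult (SD, n = 3). The adult arrays read 6.60, 7.04 and 6.98 on the left and 6.72, 8.32 and 7.02 on the right, against 6.14, 5.94 and 5.76 on the left and 5.81, 5.68 and 6.33 on the right at day 3 (difference 1.17 ± 0.18, adjusted p = 8.66e-06). All adult arrays lay above all day 3 arrays. Its neighbour Col4a3 stayed under the median of all values in every group, and was higher in the adult by 0.52 ± 0.11 (adjusted p = 4.05e-04). Their stage means had a correlation of 0.93, against 0.07 for Col4a3 with its network partner Col4a5.

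**Figure D4:**
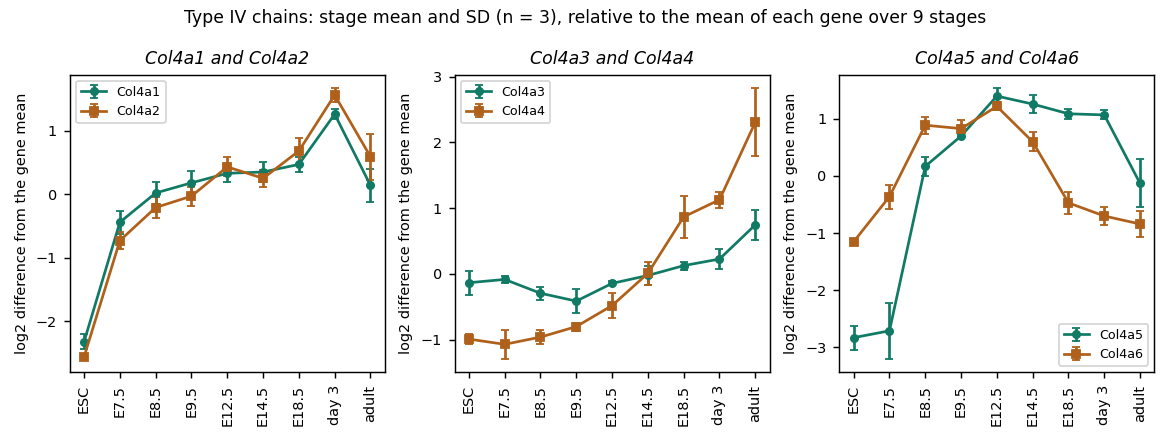
Stage means (± SD, n = 3) of the 3 head-to-head pairs of type IV genes, each as the log2 difference from that gene's own mean over the 9 stages. Col4a1 and Col4a2 run together through all stages, Col4a3 and Col4a4 rise towards the adult, and Col4a6 drops away from Col4a5 at E18.5, where it was lower than at E14.5 by 1.07.

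Col15a1 and Col18a1 encode the 2 multiplexins of basement membranes, whose ends can be cut off as inhibitors of vessel growth, and they ran in opposite directions over time. Col18a1 had its highest mean in heart tubes, 11.24 ± 0.12, and its lowest in the adult, 7.63 ± 0.11 (SD, n = 3). In the adult it read 7.62, 7.67 and 7.56 on the left and 7.42, 7.81 and 7.72 on the right, against 9.40, 9.70 and 9.70 on the left and 9.5, 9.65 and 9.63 on the right at day 3 (difference -1.96 ± 0.10, adjusted p = 3.10e-14). The 2 stages were far apart, and adult right ventricle 2 was not set off from the other adult arrays. Col15a1 had stage means of 5.72 at both E8.5 and E9.5, then was higher at each step to day 3: by 0.49 at E12.5 (adjusted p = 0.005), 0.55 at E14.5 (0.008), 0.64 at E18.5 (7.30e-04) and 0.91 at day 3 (3.46e-05). Its mean at day 3 was 8.31 ± 0.16.

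Col2a1, the chain of type II collagen that makes up cartilage and also appears in early heart cushions, had its peak in the heart tube. Its means were 6.97 ± 0.04 in ESC, 6.72 ± 0.37 at E7.5, 11.45 ± 0.23 at E8.5, 10.63 ± 0.09 at E9.5, 7.70 ± 0.16 at E12.5, 6.34 ± 0.61 at E14.5, 5.25 ± 0.13 at E18.5, 5.65 ± 0.32 at day 3 and 5.32 ± 0.29 in the adult (SD, n = 3). The E8.5 heart tubes read 11.68, 11.22 and 11.46, against 7.14, 6.49 and 6.52 in E7.5 embryos, a gap of over 4 (difference 4.73 ± 0.22, adjusted p = 1.63e-14). At E12.5 it was 6.78, 7.09 and 7.39 on the left and 8.28, 8.34 and 8.33 on the right, against 9.93, 10.11 and 9.67 on the left and 11.24, 11.38 and 11.48 on the right at E9.5 (difference -2.93 ± 0.22, adjusted p = 4.27e-10). Each ventricle fell below its E9.5 range.

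The next steps of Col2a1 are given by ventricle. At E14.5 it was 5.63, 7.54 and 5.90 on the left and 5.98, 6.47 and 6.51 on the right (difference from E12.5 -1.36 ± 0.22, adjusted p = 2.21e-04). The left array at 7.54 is the one with high skin and skeletal muscle genes, and it lay above the E12.5 left arrays. With left ventricles only the difference was -0.73 (adjusted p = 0.214), and with right ventricles only -2.00. At E18.5 against E14.5 the difference was -1.09 ± 0.22 (adjusted p = 5.35e-04), and -0.76 with left ventricles only (adjusted p = 0.076).

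Col9a1, a chain of type IX collagen that sits on type II fibrils, was high earlier and for longer. It was 7.75, 7.53 and 7.76 at E7.5 against 4.72, 4.15 and 4.23 in ESC, with no overlap (difference 3.31 ± 0.24, adjusted p = 3.36e-11). It peaked at E12.5, at 8.71 ± 0.28 (SD, n = 3), with 6.78, 7.63 and 7.86 on the left and 10.01, 9.96 and 10.00 on the right. At E14.5 it was 5.31, 7.43 and 7.05 on the left and 6.81, 7.47 and 6.59 on the right (difference from E12.5 -1.93 ± 0.24, adjusted p = 6.57e-06). The right ventricles were lower at E14.5 on every array, while the left ranges overlapped: -3.03 with right ventricles only and -0.83 with left only (adjusted p = 0.197). Col9a1 fell further at E18.5, to 5.13 ± 0.19 against 6.78 ± 0.70 at E14.5 (difference -1.65 ± 0.24, adjusted p = 1.03e-05), and its lowest mean was 4.29 in the adult.

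The other type IX chains moved less. Col9a2 had its highest mean at E12.5, 5.39 ± 0.07, under the median of all values, and Col9a3 rose by 0.60 ± 0.13 at E12.5 (adjusted p = 5.12e-04) and fell by 0.54 at E14.5 (difference -0.54, adjusted p = 0.006). Col11a1, a chain of type XI collagen, the core of thin fibrils, was 6.64, 6.58 and 6.19 in heart tubes against 5.14, 4.56 and 4.34 in E7.5 embryos, which did not overlap (difference 1.79 ± 0.19, adjusted p = 4.21e-08). It peaked at E12.5 at 6.92 ± 0.13. It was lower at E18.5 than at E14.5 (difference -1.12 ± 0.19, adjusted p = 8.41e-05), a call lost with right ventricles only (-0.40, adjusted p = 0.313). In the adult it was 3.90, 3.68 and 3.59 on the left and 3.70, 5.21 and 3.87 on the right, against 5.86, 5.78 and 5.58 on the left and 5.52, 5.74 and 5.73 on the right at day 3, all higher than any adult array (difference -1.71 ± 0.19, adjusted p = 7.63e-08). Col10a1, the mark of hypertrophic cartilage, and Col11a2 stayed under the median of all values in every group, with ranges of 0.38 and 0.64. Of 13 other cartilage markers, 3 were higher and 3 lower at E8.5 against E7.5, and 0 higher and 3 lower at E14.5 against E12.5, so the list had no common direction at E8.5.

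Type VI collagen, a beaded filament around cells, is made from Col6a1, Col6a2 and another chain, usually Col6a3. All of these 3 rose at E12.5. Col6a3 was 7.59, 7.63 and 7.47 on the left and 8.67, 8.33 and 7.98 on the right at E12.5, against 6.22, 5.87 and 5.66 on the left and 5.61, 5.12 and 4.70 on the right at E9.5 (difference 2.42 ± 0.18, adjusted p = 4.09e-10). Col6a1 rose by 2.33 ± 0.27 (adjusted p = 3.25e-07) and Col6a2 by 1.83 ± 0.15 (adjusted p = 1.93e-09). None of the E12.5 arrays of these genes overlapped with E9.5. They then went on rising in mean to day 3, at 10.35 ± 0.05 for Col6a1, 11.54 ± 0.06 for Col6a2 and 9.77 ± 0.07 for Col6a3 (SD, n = 3). The adult difference was called for Col6a2 (-0.69 ± 0.15, adjusted p = 5.19e-04) and not for the other two. Stage means of the 3 genes had correlations of 0.98 to 1.0.

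Col6a3 rose at E14.5 against E12.5 by 1.1 ± 0.18 (adjusted p = 2.79e-04), and the ventricles differed. On the left it was 9.76, 10.33 and 9.56 at E14.5, against 7.59, 7.63 and 7.47 at E12.5 (2.31 with left ventricles only, adjusted p = 1.66e-08). On the right it was 8.17, 8.2 and 8.24 at E14.5, within the 7.98 to 8.67 of E12.5, and the difference turned to -0.12 with right ventricles only (adjusted p = 0.791). The alternative chains Col6a4 and Col6a5 had stage ranges of 0.54 and 0.20, the last being the narrowest of the 42 genes.

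Type VIII collagen, a short-chain network collagen of vessel walls and valves, gave the largest rise of the 42 genes in the adult against day 3. Col8a1 was 9.63, 9.90 and 9.14 on the left and 8.56, 11.40 and 9.57 on the right in the adult, against 7.0, 7.37 and 7.05 on the left and 6.80, 6.71 and 6.96 on the right at day 3 (difference 2.72 ± 0.25, adjusted p = 1.95e-09). All adult arrays exceeded all day 3 arrays, and without the high adult right ventricle 2 the difference was 2.47. Col8a1 had 2 earlier turns. It fell at E18.5 to 5.57, 5.40 and 5.78 on the left and 5.76, 5.65 and 5.39 on the right, against 8.2, 7.87 and 8.17 on the left and 7.39, 7.34 and 7.41 on the right at E14.5 (difference -2.14 ± 0.25, adjusted p = 5.42e-07). It was higher again at day 3, by 1.39 ± 0.25 (adjusted p = 2.59e-04), without overlap. Col8a1 also rose at E9.5 against E8.5, by 1.14 ± 0.25 (adjusted p = 0.001), with 6.61, 6.37 and 6.59 on the left and 7.80, 8.15 and 7.87 on the right at E9.5, against 6.22, 5.72 and 6.34 in heart tubes. With left ventricles only this difference was 0.43 and not called (adjusted p = 0.126).

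Its partner Col8a2 was high at E12.5 and E14.5. It was 6.72, 6.74 and 6.67 on the left and 7.02, 6.29 and 6.59 on the right at E12.5, against 3.71, 4.19 and 3.70 on the left and 3.86, 4.26 and 3.86 on the right at E9.5 (difference 2.74 ± 0.30, adjusted p = 1.69e-07). The 2 stages were more than 2 apart on every array. At E18.5 it was back at 4.51 ± 0.27, against 6.41 ± 0.32 at E14.5 (SD, n = 3; difference -1.89 ± 0.30, adjusted p = 4.00e-05). Adult right ventricle 2 stood apart for this gene as well, at 6.61 against 3.55 to 4.76 on the other adult arrays. The stage means of the 2 type VIII genes had a correlation of 0.42.

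Fibril-associated collagens sit on the surface of type I fibrils. Col12a1 rose in heart tubes to 8.53, 7.82 and 8.07, against 3.97, 4.13 and 3.69 in E7.5 embryos (difference 4.21 ± 0.25, adjusted p = 1.43e-12). The groups were more than 3 apart, and the heart tube remained its highest stage. At E9.5 it was 6.09, 6.12 and 6.08 on the left and 7.44, 7.68 and 7.46 on the right, below every heart tube (difference -1.33 ± 0.25, adjusted p = 3.07e-04). With right ventricles only the E9.5 difference was -0.61 (adjusted p = 0.284). In the adult against day 3 its probe sets disagreed, with differences from -0.89 to 0.30 that were called in both directions.

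Col14a1 had the next widest range after Col3a1, 6.57, with its highest mean at day 3. It was 8.04, 7.94 and 7.62 on the left and 7.93, 7.66 and 7.44 on the right at E12.5, against 4.70, 5.48 and 4.97 on the left and 4.84, 5.34 and 4.89 on the right at E9.5 (difference 2.73 ± 0.35, adjusted p = 1.17e-06). No array of one stage fell in the range of the other. In the adult it was 7.03, 8.96 and 7.87 on the left and 7.64, 10.66 and 7.63 on the right, against 10.11, 10.21 and 10.02 on the left and 10.16, 10.18 and 10.44 on the right at day 3 (difference -1.89 ± 0.35, adjusted p = 7.67e-05). Adult right ventricle 2 was the only adult array not below all day 3 arrays, and without it the difference was -2.17. The 3 smaller steps of Col14a1 were not called under every alternative. At E9.5 against E8.5 the difference was -1.06 (adjusted p = 0.026), and -0.47 with probe sets averaged (adjusted p = 0.168). Without replicate 1 or 3 of either stage it was -0.92 to -1.05 (adjusted p = 0.059 to 0.106), and -1.11 without the arrays that stood apart (0.070). At E14.5 against E12.5 it was 1.34 (adjusted p = 0.012), with 2.11 from left ventricles only (2.99e-05) and 0.56 from right ventricles only (0.425). Without the arrays that stood apart it was 1.04 (adjusted p = 0.068), without E12.5 replicate 3 it was 1.22 (0.051) and without E14.5 replicate 1 it was 1.28 (0.053). At day 3 against E18.5 it was 1.12 (adjusted p = 0.025), and 0.74 with left ventricles only (0.079). There, leaving out any 1 replicate of day 3, or replicate 1 or 2 of E18.5, kept the difference at 1.06 to 1.14 with an adjusted p of 0.056 to 0.081.

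The other members of this class moved less. Col16a1 rose at E12.5 by 1.47 ± 0.17 (adjusted p = 3.00e-07) and was lower at E18.5 (difference -0.69 ± 0.17, adjusted p = 0.003). Col20a1 had stage means from 6.64 at E9.5 to 7.55 in the adult. Col19a1 and Col22a1, known from muscle and from tissue junctions, stayed under the median of all values in every group, with ranges of 0.28 and 0.61.

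The transmembrane collagens Col13a1 and Col23a1, whose cut-off ends can enter the matrix, shared a course unlike that of the fibrillar genes. Col13a1 was 8.07, 7.50 and 8.15 at E7.5 against 4.84, 4.91 and 5.20 in ESC (difference 2.92 ± 0.15, adjusted p = 1.74e-13). Col23a1 was 7.90, 7.31 and 7.65 at E7.5 against 4.71, 4.03 and 4.75 in ESC (difference 3.12 ± 0.21, adjusted p = 1.25e-11). Both sets of groups were more than 2 apart. Both genes peaked at E12.5, at 8.79 ± 0.05 for Col13a1 and 9.10 ± 0.10 for Col23a1 (SD, n = 3), and fell at each of the 4 later steps to 5.23 ± 0.29 and 5.39 ± 0.51 in the adult. The adult fall of Col13a1 (difference -0.44, adjusted p = 0.021) was not called with arrays scaled to housekeeping genes (-0.20, adjusted p = 0.24). Among the 4 falls of each gene, the largest was that of Col13a1 at E18.5 against E14.5 (difference -1.24 ± 0.15, adjusted p = 1.72e-06). At E18.5 it was 6.78, 7.03 and 6.62 on the left and 6.45, 6.69 and 6.14 on the right. At E14.5 it was 7.69, 7.78 and 7.91 on the left and 7.91, 7.75 and 8.09 on the right. The E18.5 arrays were all below those of E14.5. The other transmembrane chains had narrow ranges, 0.44 for Col25a1 and 0.68 for Col17a1, a protein of skin hemidesmosomes. For Col17a1 the array at 5.56, against 3.59 and 3.66 in its group, was E14.5 left ventricle 2, the one with high skin genes.

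Col26a1, which encodes a matrix protein first described in testis and ovary of the mouse, changed direction at several steps. It was 6.21, 5.58 and 5.92 at E7.5 against 4.65, 4.58 and 4.37 in ESC (difference 1.37 ± 0.15, adjusted p = 5.59e-08). It fell at E18.5 to 6.39 ± 0.05 against 7.69 ± 0.14 at E14.5 (SD, n = 3; difference -1.30 ± 0.15, adjusted p = 6.69e-07), and was higher at day 3 by 1.03 ± 0.15 (adjusted p = 3.24e-05). In the adult it was 5.34, 5.39 and 5.30 on the left and 4.63, 3.95 and 5.52 on the right, against 7.33, 7.54 and 7.39 on the left and 7.52, 7.33 and 7.41 on the right at day 3 (difference -2.40 ± 0.15, adjusted p = 3.58e-12). The 2 stages did not overlap, and adult right ventricle 2, high for Col1a1, Col8a1 and Col14a1, was the lowest adult array here. Col7a1, the anchoring fibril of skin, had its highest mean in ESC, 7.03 ± 0.15, and its lowest in the adult, 5.75 ± 0.05.

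Genes that make, finish, bind and break down collagen were followed on 5 lists. The breakdown list includes Timp1, Timp2 and Timp3, which inhibit enzymes that cut collagen. Of all genes, 20.4% were called higher and 28.1% lower at E8.5 against E7.5. At E12.5 against E9.5 these shares were 20.1% and 18%. Of 18 genes for collagen synthesis in the cell, 11 were higher and 1 lower at E8.5 against E7.5, among them Serpinh1, the collagen chaperone (1.38 ± 0.08, adjusted p = 5.75e-13). At E12.5 against E9.5, 8 were higher and 0 lower, with P4ha3, a prolyl hydroxylase subunit, at 1.5 ± 0.14 and P3h3 at 1.28 ± 0.14. Of 9 trimming and crosslinking genes 7 were higher and 1 lower at E12.5, led by Lox, the crosslinking enzyme lysyl oxidase (3.78 ± 0.23, adjusted p = 1.19e-11), and Loxl1 (1.96 ± 0.14), while Pcolce2, an enhancer of propeptide trimming, fell (-1.48 ± 0.21). Of 9 receptors 6 were higher and 0 lower. Of the 10 genes on the breakdown list 6 were higher and 0 lower, with Ctsk (1.60 ± 0.25) and Mmp2 (1.54 ± 0.13), both enzymes that cut collagen. The inhibitors Timp1, Timp2 and Timp3 also had higher means, 9.21, 10.22 and 10.52 at E12.5 against 8.85, 9.60 and 9.38 at E9.5. Basement membrane partners were mixed, with 3 of 11 higher and 2 lower.

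In the adult against day 3 these lists moved in both directions, as did all genes, of which 22.3% were called higher and 26.4% lower. Of the 18 synthesis genes 4 were higher and 9 lower: P4ha3 (-1.26 ± 0.14) and Serpinh1 (-1.01 ± 0.08) fell, while the other prolyl hydroxylase subunits P4ha1 (1.14 ± 0.11) and P4ha2 (1.22 ± 0.11) rose. Of the 9 trimming and crosslinking genes 1 was higher, Pcolce2 (1.39 ± 0.21), and 5 were lower, among them Lox (-1.77 ± 0.23) and Sparc (-0.98 ± 0.12), which binds collagen. Of the 10 genes on the breakdown list, inhibitors included, 3 were higher and 3 lower, with Mmp14, a membrane-bound collagenase, at -1.73 ± 0.12. The inhibitors Timp1, Timp2 and Timp3 averaged 7.69, 10.92 and 11.32 in the adult, against 9.10, 10.85 and 10.62 at day 3. Of the 11 basement membrane partners 2 were higher, with the laminin chain Lamb2 at 1.35 ± 0.10, and 5 lower, with the nidogen Nid2 at -1.57 ± 0.13. Of 9 receptors 1 was higher and 3 were lower. Of 12 fibroblast markers 3 were higher and 6 lower, and the list averaged 9.09 to 10.5 per adult array, against 9.84 to 10.2 at day 3.

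Left and right ventricles were compared at 6 stages. The members that differed changed with the stage, and the direction with them. At E9.5, 9 collagen genes were called (3 higher and 6 lower on the left), against 3.5% of all genes (2% higher, 1.5% lower). Col9a1 was lower on the left, at 6.46, 7.06 and 6.91, against 8.44, 8.65 and 8.24 on the right (difference -1.63 ± 0.32, adjusted p = 0.001). Col2a1 was lower too, at 9.93, 10.11 and 9.67 on the left, against 11.24, 11.38 and 11.48 on the right (difference -1.46 ± 0.30, adjusted p = 0.002). The transmembrane genes were higher on the left: Col13a1 was 8.91, 8.98 and 9.06 on the left, against 7.47, 7.85 and 7.61 on the right (difference 1.34 ± 0.16, adjusted p = 6.29e-07). Col23a1 had 8.12, 8.45 and 8.22 on the left, against 6.81, 7.02 and 6.91 on the right (difference 1.35 ± 0.23, adjusted p = 1.25e-04). None of these 4 genes overlapped between the ventricles.

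Col12a1 (-1.43 ± 0.34, adjusted p = 0.008) and Col8a1 (-1.42 ± 0.33, adjusted p = 0.007) were also lower on the left at E9.5, by the values given above, and neither overlapped. The Col8a1 call was lost when probe sets of a gene were averaged (-0.66, adjusted p = 0.170), as was that of Col1a1 (-0.99, adjusted p = 0.017, and -0.43, adjusted p = 0.511, with averaged probe sets). Col26a1 was higher on the left by 0.85 ± 0.21 (adjusted p = 0.013), and Col22a1 lower (-0.40 ± 0.12, adjusted p = 0.044). Averaging the probe sets ended these calls as well, with 0.35 for Col26a1 (adjusted p = 0.0965) and -0.26 for Col22a1 (adjusted p = 0.107). Of 13 other cartilage markers 0 were called in either direction at E9.5, and the list averaged 5.41 to 5.49 on the left, against 5.51 to 5.59 on the right. Of 12 fibroblast markers 1 was called, Tnc, a matrix glycoprotein of cushions and outflow tract (-3.05 ± 0.23, adjusted p = 8.63e-12). The fibroblast list averaged 6.65 to 6.77 on the left, against 6.94 to 7.45 on the right. The endothelial and endocardial list averaged 8.82 to 8.97 on the left, against 8.26 to 8.61 on the right. What these lists contribute to the collagen values was not tested.

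At E12.5 the 3 calls, against 1.26% of all genes (0.346% higher, 0.918% lower), were all cartilage-type genes that were lower on the left. Col9a1 was 6.78, 7.63 and 7.86 on the left, against 10.01, 9.96 and 10.00 on the right (difference -2.57 ± 0.32, adjusted p = 1.68e-06), more than 2 apart on all arrays. Col9a3 was 5.64, 6.10 and 6.07 on the left, against 6.98, 6.96 and 6.86 on the right, again with no overlap (difference -1.0 ± 0.18, adjusted p = 9.52e-04). Col2a1 differed by -1.23 ± 0.30 (adjusted p = 0.020), with 6.78, 7.09 and 7.39 on the left, against 8.28, 8.34 and 8.33 on the right. The Col2a1 call was lost without left replicate 1 (-1.08, adjusted p = 0.195). Leaving out left replicate 2 or any right replicate kept the difference at -1.22 to -1.25 with an adjusted p of 0.072 to 0.083. Without the arrays that stood apart it was -1.23 (adjusted p = 6.53e-04). Fitted on the E12.5 groups alone, Col3a1 (-0.54, adjusted p = 0.00935) and Col6a3 (-0.76, adjusted p = 0.0285) were called lower on the left as well, neither of them a cartilage-type gene. Of the 13 other cartilage markers 2 were lower on the left, Sox9 (-0.84 ± 0.17, adjusted p = 0.004), the regulator of cartilage genes, and Matn4 (-0.77 ± 0.15, adjusted p = 0.002), a cartilage matrix protein. That list averaged 5.39 to 5.52 on the left, against 5.56 to 5.69 on the right. Of 12 fibroblast markers 3 were lower on the left, with list means of 8.35 to 8.60 on the left against 9.09 to 9.24 on the right. Of 10 smooth muscle and pericyte markers 2 were lower on the left, with list means of 8.80 to 8.86 on the left against 9.21 to 9.33 on the right. Whether any of these lists has a part in the result was not tested.

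At E14.5 the direction turned, with 15 collagen genes called, all higher on the left, against 8.51% of all genes (4.24% higher, 4.27% lower). They were 3 fibrillar, 3 basement membrane, 1 cartilage and 8 other genes, and the median difference over the 42 was 0.28, against -0.05 over all genes. Col6a3 was 9.76, 10.33 and 9.56 on the left, against 8.17, 8.2 and 8.24 on the right (difference 1.67 ± 0.23, adjusted p = 2.69e-05). Col1a1 was 11.41, 11.52 and 11.78 on the left, against 9.85, 10.08 and 10.17 on the right (difference 1.54 ± 0.25, adjusted p = 2.46e-04). Col12a1 was 7.40, 7.96 and 7.05 on the left, against 5.52, 5.56 and 5.50 on the right (difference 1.95 ± 0.34, adjusted p = 4.10e-04). In these 3 genes the lowest left array was more than 1 above the highest right array.

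Col11a1 was 6.88, 7.67 and 7.06 on the left at E14.5, against 5.64, 5.83 and 6.06 on the right (difference 1.36 ± 0.26, adjusted p = 0.001). Col1a2 was 13.66, 13.73 and 13.70 on the left, against 12.54, 12.52 and 12.66 on the right (difference 1.12 ± 0.23, adjusted p = 0.002). Col4a1 was 12.51, 12.38 and 12.54 on the left, against 11.36, 11.51 and 11.88 on the right (difference 0.89 ± 0.20, adjusted p = 0.004). Again no arrays overlapped. The other 9 genes, with differences of 0.57 to 1.74, were Col4a2, Col5a1, Col6a1, Col6a2, Col8a2, Col14a1, Col16a1, Col18a1 and Col26a1. Col3a1 differed by 0.72 (adjusted p = 0.233), although its left arrays, 14.01, 14.09 and 14.05, lay above the right ones, 13.32, 13.30 and 13.36. All 15 groups shared 1 estimate of the spread of each gene, and Col3a1 had an SD of 1.58 at E7.5. With the replicate block, fitted on ventricle arrays only, this Col3a1 difference was called (adjusted p = 0.030). In all, 21 of the 42 genes did not overlap between the ventricles at E14.5, against 30.9% of all genes.

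Genes of other tissues moved with the E14.5 result. Skin markers were higher on the left in 4 of 7, averaging 5.81, 8.58 and 6.02 on the left, against 5.63 to 5.86 on the right. Skeletal muscle markers were higher in 5 of 9, averaging 6.29, 7.75 and 5.71 on the left, against 5.59 to 5.70 on the right. Without the arrays that stood apart, which include the left array with the highest values of both lists, 12 collagen genes were called, 11 of them higher on the left. Col6a1, Col8a2, Col16a1 and Col26a1 were then no longer called, and Col9a3 was called lower on the left (-0.64, adjusted p = 0.038). Leaving out left replicate 3 or right replicate 2 left 9 calls each. Fibroblast markers were higher in 3 of 12, averaging 9.37 to 9.54 on the left, against 9.04 to 9.09 on the right, and basement membrane partners in 5 of 11. Smooth muscle and pericyte markers were higher in 3 of 10 and lower in 0, averaging 9.40 to 9.56 on the left, against 9.09 to 9.24 on the right. The part of the fibroblast and smooth muscle lists was not tested.

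Later stages gave few calls. At E18.5, 2 genes were called higher on the left, against 4.95% of all genes (2.84% higher, 2.11% lower). Col4a4 was 6.52, 6.55 and 5.84 on the left, against 5.25, 5.14 and 4.78 on the right (difference 1.25 ± 0.25, adjusted p = 0.002). Col1a1 was 11.00, 10.89 and 11.63 on the left, against 10.39, 10.23 and 9.76 on the right (difference 1.05 ± 0.25, adjusted p = 0.012). Neither gene overlapped between the ventricles. Without right replicate 3 Col1a1 was not called (0.86, adjusted p = 0.080), and without left replicate 3 the count was 4, with Col2a1 and Col4a2 added. In the same arrays 5 of 8 epicardial markers were higher on the left, averaging 8.36 to 9.01 on the left, against 7.41 to 7.63 on the right. The fibroblast list averaged 9.52 to 9.65 on the left, against 9.29 to 9.38 on the right. Yolk sac endoderm markers were higher in 3 of 10, averaging 5.87 to 7.59 on the left, against 4.96 to 5.44 on the right. The part of these lists in the result was not tested.

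At day 3 limma called 0 collagen genes between the ventricles, against 0.0055% of all genes (1 gene), and 1 collagen gene, Col25a1, had an unadjusted p under 0.05. In the adult it called 0, against 0.0165% of all genes (3 genes), and 4 collagen genes, Col5a2, Col11a1, Col26a1 and Col27a1, had an unadjusted p under 0.05. In the adult, 1 gene was called without right replicate 1 (Col12a1) and 1 without right replicate 3 (Col26a1). The members without overlap between the ventricles numbered 17 at E9.5, 16 at E12.5, 10 at E18.5, 8 at day 3 and 1 in the adult, against 19.6%, 20.9%, 21.1%, 10.7% and 5.56% of all genes at these stages.

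Averaged over the 6 stages, 3 collagen genes differed, against 2.97% of all genes (1.25% higher, 1.72% lower). Col9a1 was lower on the left (-0.95 ± 0.13, adjusted p = 6.38e-06), and Col26a1 (0.38 ± 0.09, adjusted p = 0.008) and Col13a1 (0.27 ± 0.07, adjusted p = 0.015) were higher. Adult right ventricle 2 weighed on this count: without it 7 genes were called, with Col1a2, Col6a3, Col14a1 and Col23a1 added, and without E14.5 left ventricle 2 it was 5, with Col2a1 and Col9a3 added.

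A test of whether the left minus right difference changed between the 6 stages called 12 collagen genes, against 5.85% of all genes. The 6 with the smallest p were Col1a1 (adjusted p = 3.12e-05), Col6a3 (5.05e-05), Col12a1 (2.57e-04), Col13a1 (2.67e-04), Col9a1 (8.81e-04) and Col2a1 (0.003). Col1a1 was lower on the left at E9.5 (-0.99, a call lost with averaged probe sets), higher at E14.5 (1.54) and E18.5 (1.05), and near 0 at day 3 (0.05). The Col12a1 difference was likewise -1.43 at E9.5 and 1.95 at E14.5. Col13a1 and Col9a1 differed early and no longer after birth by the test at each stage. Without adult right ventricle 2 the test called 15 genes.

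**Figure D5:**
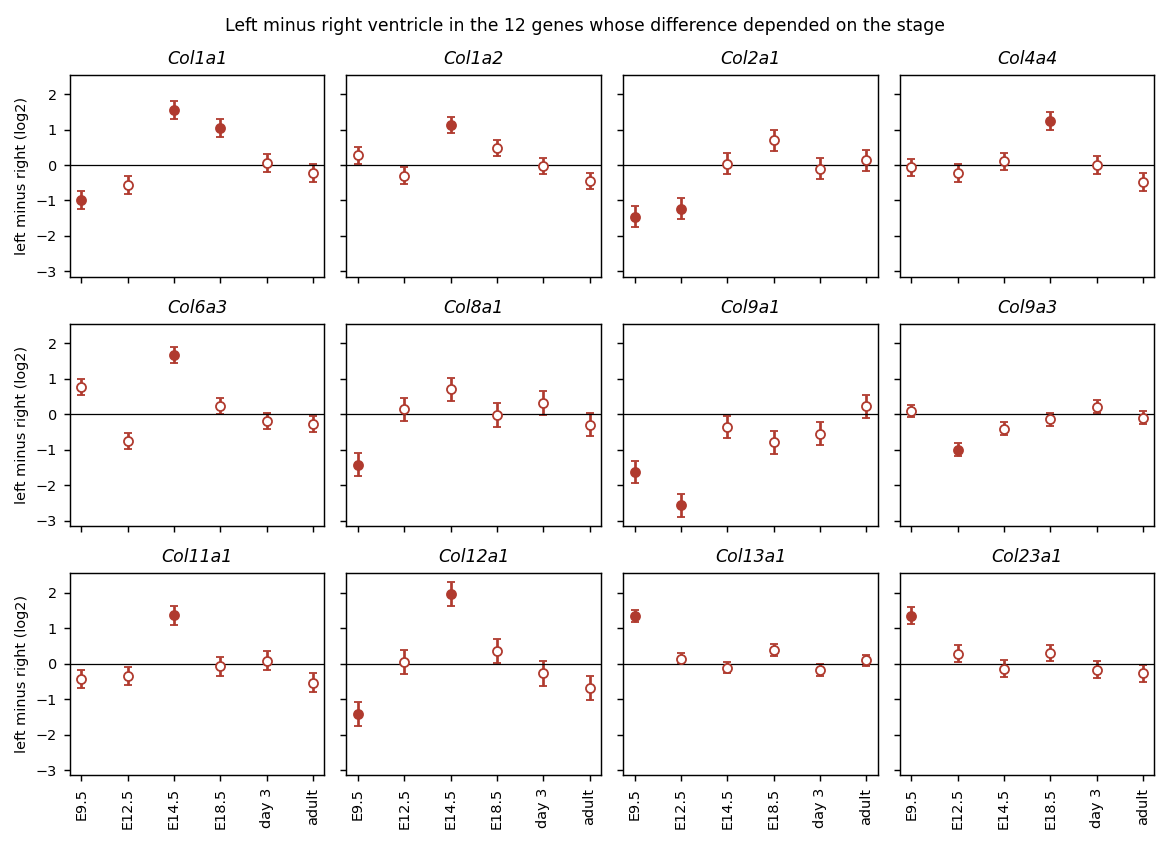
Left minus right difference (log2, ± SE) at each of the 6 ventricle stages for the 12 collagen genes in which that difference changed between stages; filled points had an adjusted p under 0.05 at that stage. Col9a1 and Col2a1 lie below 0 at E9.5 and E12.5, Col13a1 and Col23a1 above 0 at E9.5, and Col1a1, Col6a3 and Col12a1 above 0 at E14.5.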

How the data were processed

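The 45 arrays held 3 samples in each of 15 groups, taken from the labels. The deposited values are log2 expression values per probe set that the authors made with RMA (background correction, quantile normalization and a summary over probes), per the submitters' processing notes. The RMA version is not given in the sources used here. Quantile normalization removes changes shared by most genes (array medians ran from 5.35 to 5.47), and RMA compresses differences of dim probe sets. No detection calls were used. Biotin-labelled RNA was prepared from 100 ng of total RNA, per the labels' protocols, and hearts of the last 2 stages had been frozen and ground before extraction. No pair of the 45 arrays held identical values.

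Of 45101 probe sets, 34945 carried 1 gene symbol in the platform annotation, 932 several and 9160 none, and 34741 matched a RefSeq gene. For each of the 18193 genes the probe set with the highest mean was kept. The rule for the members reads gene names only, but it and the lists were chosen with earlier results of these data known. Of the genes listed, 188 were measured and 19 were not. Col6a6 and Col28a1 were not analysed here.

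limma 3.58.1 under R 4.3.3 (lmFit, eBayes, Benjamini-Hochberg over 18193 genes, adjusted p under 0.05) fitted stage steps on 27 values, with same-numbered left and right ventricles averaged. Left against right was fitted on 45 arrays as 15 groups, at each stage, over the mean of 6 stages, and as an F-test of change between stages. Tables used pandas 2.3.3 and NumPy 2.4.6 in Python 3.11.15, and figures used Matplotlib 3.10.9. Deviations of same-numbered ventricles from their group means correlated positively in every pair at 3 stages. These were E9.5 (0.257, 0.317 and 0.0713), E12.5 (0.271, 0.321 and 0.369) and day 3 (0.167, 0.0274 and 0.0912). At E14.5, E18.5 and in the adult, some or all of these correlations were negative. The labels do not say what a number marks.

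Every collagen gene was described. In full were given, per stage step, up to 8 called genes with the largest differences of at least 1 and no overlap, and per ventricle comparison up to 6 called genes with the smallest p, besides Col1a1, Col1a2, Col3a1, Col4a1, Col4a2 and Col2a1. Up to 4 called genes per pathway list could be named. An array stood apart where its mean on a list of another tissue was over 1.5 above its group's other replicates. Promoter sequences came from RefSeq, GRCm38.p6.

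The fits were tested on simulated data of 18193 genes with 200 changed. In the step to E14.5, the recovered share was 83.6% for changes of 0.5, 95.5% for 1 and 100% for 2 (log2), with 3 false calls among 189. For left against right at E14.5 the shares were 59.7%, 95.5% and 100%, with 13 false calls among 183. The noise was drawn independently for each gene and array, so arrays that stand apart on a whole list were not imitated. The real comparisons also called more genes, 13.3% and 8.51% of all. Alternatives were the mean of all probe sets, a filter on dim genes, scaling to housekeeping genes, the replicate block, other variance settings, single ventricles, a stricter threshold, leaving out each replicate and, chosen after seeing the data, leaving out the arrays that stood apart and adult right ventricle 2.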

Additional observations from a re-analysis of the deposited data

Results flagged for a closer look

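The left minus right difference changed between the 6 ventricle stages in 12 collagen genes (F-test in limma, adjusted over 18193 genes). The adjusted p was 3.12e-05 for Col1a1, 5.05e-05 for Col6a3, 2.57e-04 for Col12a1 and 2.67e-04 for Col13a1. It was 8.81e-04 for Col9a1, 0.003 for Col2a1, 0.006 for Col11a1 and 0.007 for Col23a1, both of these last genes having differed at 1 stage each, Col11a1 at E14.5 and Col23a1 at E9.5. It was 0.010 for Col1a2, 0.015 for Col4a4, 0.020 for Col9a3 and 0.033 for Col8a1. The Col4a4 result was lost without the arrays that stood apart (adjusted p = 0.093), and that of Col9a3 with the replicate block (adjusted p = 0.0621). In 2 of the genes, Col1a1 and Col12a1, the difference was called in both directions, lower on the left at E9.5 and higher at E14.5. The E9.5 call of Col1a1 was lost when its probe sets were averaged (-0.43, adjusted p = 0.511). Whether dissection, pooling or cell makeup has a part in these changes was not tested.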

How the results depend on the processing

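The 79 differences of single genes counted here were picked from these data as called, by size and lack of overlap in steps and by smallest p between ventricles. Of them, 65 kept their direction and their side of the threshold under every alternative run, and 14 were lost under at least 1. That choice favours stable calls. Calls outside it were not counted, such as those of Col3a1, Col13a1 and Col27a1 in the adult, which housekeeping scaling ended. The reversed value was that of Col6a3 at E14.5 against E12.5 with right ventricles only (-0.12). Of 305 alternative counts of collagen genes, 288 were within 1.5 times the reported ones. Where each gene was fitted with the groups compared only, 21 genes were called at E14.5 against E12.5 (12 higher, 9 lower), 5 between the ventricles at E12.5 and 1 at E18.5. With all probe sets of a gene averaged, 5 were called between the ventricles at E9.5 and 5 over the mean of stages. At an adjusted p under 0.01, 9 were called between the ventricles at E14.5 and 1 at E18.5. Without the arrays that stood apart, 5 were called over the mean of stages, and without adult right ventricle 2 it was 7. Leaving out 1 replicate in turn gave 7 to 9 genes at E9.5 against E8.5, 9 to 12 between the ventricles at E14.5, 1 to 4 at E18.5, 0 to 1 in the adult and 3 to 7 over the mean of stages. The causes were not tested.

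With a replicate block, the steps called 17, 24, 11, 27, 14, 21, 14 and 26 genes in time order. For the steps this block was the replicate number shared by all stages. It cannot address the pairing of ventricles, which had already been averaged. Between the ventricles the block was stage and number, and the counts were 10, 3, 15, 3, 0 and 0. The mean of stages then called 4 and the F-test 14 (Col3a1, Col14a1 and Col16a1 gained, Col9a3 lost). Between the ventricles at E12.5 the block left the count at 3, while for E14.5 against E12.5 it gave 14 in place of 13. With arrays scaled to the housekeeping list, the all-gene median shifted by 0.143 at E12.5 against E9.5 (32 collagen genes called, 31 higher and 1 lower) and by 0.239 in the adult against day 3. In the adult step that scaling ended the calls of Col3a1, Col7a1, Col13a1 and Col27a1. No detection calls were used, so how far background sets the dim values was not tested. Adult arrays came from single hearts, and 1 of them carried much of the adult spread.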
